A study of Mus musculus with 3 samples.

Results

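Pou5f1, Sox2, Sall4, Utf1, Lin28a, L1td1, Zfp281, Rif1 and Trim28, genes long tied to pluripotency, were read in mouse embryonic stem cells given graded FGF4. They were found by symbol among 32285 annotated genes, and all 9 were present in the 3 libraries. The cells were E14tg2a, an established mouse embryonic stem cell line, and every group carried the genotype Fgf4 -/-, so that added FGF4 was the ligand under study. All cells spent 24 h in N2B27, a serum-free medium, with Chiron, a GSK3 inhibitor, and 1 µg/ml heparin, a cofactor of FGF binding. The groups differed in FGF4, at 0, 5 or 50 ng/ml. Each dose was 1 droplet-based 3' single-cell RNA library of the Fgf4-mutant line, with 373, 874 and 975 cells at 0, 5 and 50 ng/ml. With 1 library per dose, the spread between cultures was not measured. No test between doses was therefore possible, and intervals below cover counting error only.

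Pou5f1 (also called Oct4) and Sox2 encode transcription factors that bind DNA together at joined POU and SOX half-sites and hold embryonic stem cells in the undifferentiated state. Sall4 encodes a zinc finger factor that binds the NuRD repressor, Utf1 a chromatin-bound protein of pluripotent and germ cells, and Lin28a an RNA-binding protein that blocks maturation of the let-7 miRNA family. L1td1 encodes an RNA-binding protein derived from a LINE-1 open reading frame. Zfp281 is a G-rich-motif zinc finger factor, Rif1 acts in replication timing and telomere biology, and Trim28 (KAP1) is the corepressor that KRAB zinc finger proteins bring to retroelements. FGF4 acts through FGF receptors and ERK and moves naive cells toward the formative state from which lineages arise.

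These 4 stretches upstream of annotated starts are shown because their genes include the widest difference upward with FGF4 (Utf1) and downward (Sox2), with the partner of Sox2 and the let-7 inhibitor beside them. They are RefSeq sequences of GRCm38.p6 on the coding strand and end before the earlier of the RefSeq and GENCODE starts. Capitals mark matches to the letters listed after them.
Utf1 (chr7:139943606-139943788, plus strand): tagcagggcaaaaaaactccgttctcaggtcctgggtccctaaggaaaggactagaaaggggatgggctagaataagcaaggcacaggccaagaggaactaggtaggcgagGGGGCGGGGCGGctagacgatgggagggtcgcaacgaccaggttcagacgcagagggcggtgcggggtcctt
Lin28a (chr4:134018842-134019066, minus strand): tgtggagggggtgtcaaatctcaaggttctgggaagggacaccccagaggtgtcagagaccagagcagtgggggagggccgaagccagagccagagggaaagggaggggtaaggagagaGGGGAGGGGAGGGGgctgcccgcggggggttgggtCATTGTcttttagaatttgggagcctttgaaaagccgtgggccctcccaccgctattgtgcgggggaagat
Pou5f1 (chr17:35505782-35506017, plus strand): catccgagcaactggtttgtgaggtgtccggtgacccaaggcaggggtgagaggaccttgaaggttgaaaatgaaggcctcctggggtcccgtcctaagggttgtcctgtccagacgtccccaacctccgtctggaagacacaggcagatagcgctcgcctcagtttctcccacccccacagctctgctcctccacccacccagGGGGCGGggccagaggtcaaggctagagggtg
Sox2 (chr3:34649745-34649994, plus strand): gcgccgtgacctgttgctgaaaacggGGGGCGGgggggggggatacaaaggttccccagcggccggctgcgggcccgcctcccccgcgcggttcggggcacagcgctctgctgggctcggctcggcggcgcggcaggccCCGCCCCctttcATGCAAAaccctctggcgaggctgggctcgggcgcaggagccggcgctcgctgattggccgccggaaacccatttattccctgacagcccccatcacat
Motifs were searched on both strands in RefSeq windows of 250 bases before to 50 bases after each start, which were found for 7 of the 9 members. The octamer core ATGCAAA lay in the Sox2 window, 99 bases before the start, and in 4.63% of all 32817 windows. The SOX core CATTGT lay 96 bases before the Lin28a start, in the window of a second RefSeq start of Pou5f1 and in 12.6% of windows. The GC box GGGGCGG lay in windows of 5 members (Pou5f1, Sox2, Utf1, Zfp281, Trim28) and in 23.2% of windows, with 2 overlapping matches in Utf1. The G-rich letters GGGGAGGGG, of the kind ZFP281 binds, lay in 2 overlapping matches 131 and 126 bases before the Lin28a start and in 6.37% of windows. The joined letters TTGTNATGC (0.731% of windows) and the ETS core CCGGAAG (8.86%) were in none of the member windows. Letters outside these windows were not searched, so a joined element elsewhere at Pou5f1, Sox2 or Utf1 was not read. A match is a description of these letters and not a binding site.

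Letters complementary to let-7 also lie in the Lin28a transcript, and these runs are shown for that reason. They do not show where LIN28A acts on let-7. The mature let-7a-5p of RefSeq (GRCm38.p6) is given with its seed, bases 2 to 8, in capitals, and 10 mature names in the table share that seed. The sites are 22 bases of the Lin28a 3' untranslated region with the letters CTACCTC, complementary to the seed, in capitals.
mmu-let-7a-5p: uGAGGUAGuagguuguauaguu
Lin28a site 1 (mm10 chr4:134005189-134005210, minus strand): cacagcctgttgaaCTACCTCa
Lin28a site 2 (mm10 chr4:134004551-134004572, minus strand): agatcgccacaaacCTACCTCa
The sites lay 909 and 1547 bases after the stop codon, in an untranslated region of 2775 bases. Sall4 held 1 such match in 1697 bases, and the transcripts read for the other 7 members held 0. These regions differed in length, from 122 bases in Utf1 to 2775 in Lin28a, and a longer one has more places to match. The share of all genes with such a match was not counted, so the members cannot be set against it. A match describes letters and not a working site. The let-7 RNAs themselves were not analysed here, since poly(A) 3' libraries do not count mature miRNAs.

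Library totals were 42726514, 75184072 and 81409975 UMIs at 0, 5 and 50 ng/ml (unique molecular identifiers, each counting 1 captured transcript), and medians per cell were between 87334 and 107873. No barcode was shared between libraries (0 in each pair). Transcripts assigned to Fgf4 stood at 51.7, 24.9 and 20.4 CPM (UMIs per 1000000 of the library total); a 3' tag outside the deleted part would still be counted, so they check nothing. Embryonic stem cell markers were present in every library, with 8 of 8 above 5 CPM and summed levels of 4805, 4562 and 4398 CPM. Most of each sum was Dppa5a, at 3286, 2802 and 2648 CPM. Single markers went both ways, so the sums do not mean that each was level. For example, Nanog had 280.5, 149.9 and 103.2 CPM, whereas Tdgf1 had 81.6, 173.7 and 216.5 CPM. Summed levels of fibroblast markers (9 genes) lay between 3.604 and 3.815 CPM with Col3a1 and Postn at 0 UMIs throughout, and those of primitive endoderm markers (8 genes) between 1.94 and 4.15 CPM. Primitive streak and mesoderm markers (7 genes) summed to 6.72, 17.8 and 23.2 CPM and trophectoderm markers (7 genes) to 7.05, 13.1 and 15.3 CPM, so both were higher with FGF4; their part in the results below was not tested. Cells with more than 10% mitochondrial UMIs numbered 12, 133 and 153, a share that was larger with FGF4. A cell filter on that share and on depth left 359, 706 and 798 cells, and the cells it removed held 1.28%, 3.08% and 3.51% of UMIs.

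Among the 9 genes, 3 (Utf1, Lin28a and L1td1) passed a 2-fold limit upward at 50 ng/ml compared with no FGF4, and 0 passed it downward. That limit was passed upward by 1.98% and downward by 2.03% of the 5709 genes that reached 20 CPM in 1 of the libraries compared. Members were chosen with earlier results of these data known, so such shares give a scale and do not measure an excess. At 5 ng/ml 2 members (Utf1 and Lin28a) passed it upward and 0 downward, against 1.41% and 1.32% of 5691 genes. Between 50 and 5 ng/ml 0 members differed 2-fold either way, against 0.0727% higher and 0.0545% lower of 5501 genes. L1td1 lay just inside the 2-fold limit at 50 ng/ml and Pou5f1 just outside it, at 2.06 and 1.86-fold. The median log2 ratio of the members at 50 against 0 ng/ml was 0.20, beside 0.02 for all genes; it stands between members that were higher, level and lower. The comparisons with 0 ng/ml share that library, so the values at 5 and 50 ng/ml are given side by side and are not independent.

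**Figure D1:**
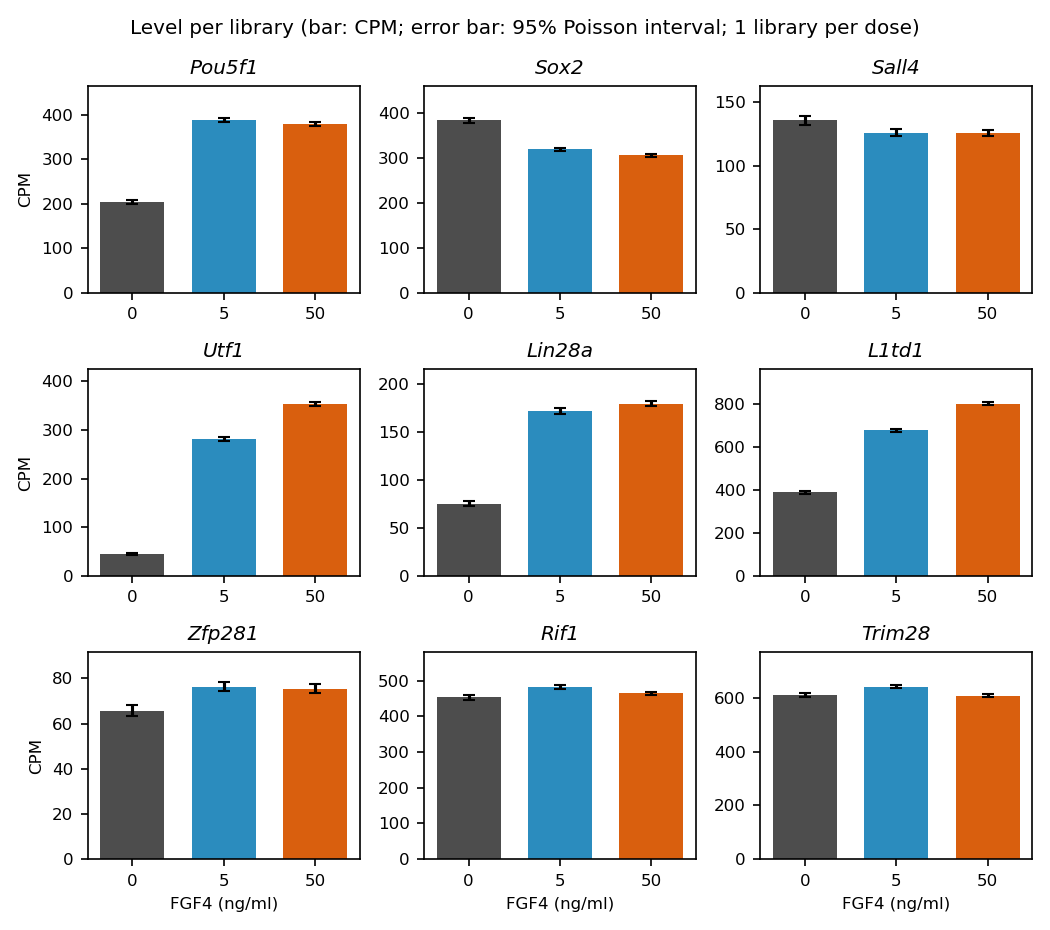
Level of each of the 9 genes in CPM (y axis, from 0, own scale per panel) at each FGF4 dose in ng/ml (x axis); a bar is 1 library and its error bar the 95% Poisson interval. Utf1, Lin28a, L1td1 and Pou5f1 were lowest without FGF4, Sox2 was highest without it, and the other 4 genes differed little.

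Pou5f1 (ENSMUSG00000024406, mm10 chr17:35506018-35510772, plus strand) had 8694, 29100 and 30830 UMIs at 0, 5 and 50 ng/ml. These made 203.5 CPM (95% Poisson interval 199.2 to 207.8), 387.1 CPM (382.6 to 391.5) and 378.7 CPM (374.5 to 383.0). The intervals at both FGF4 doses lay above that without FGF4, and the level at 5 ng/ml was slightly above that at 50, an order that turned with median of ratios scaling (log2 ratio of 50 to 5 ng/ml -0.03 by totals and 0.01 by that scaling). The ratio was 1.90 (95% counting interval 1.86 to 1.95) at 5 and 1.86 (1.82 to 1.91) at 50 against 0 ng/ml. Between the FGF4 doses it was 0.978 (0.963 to 0.994).

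Sox2 (ENSMUSG00000074637, mm10 chr3:34650405-34652461, plus strand) was the member whose level was lower with FGF4 by the widest margin. It had 382.6, 318.1 and 304.8 CPM from 16348, 23914 and 24811 UMIs, and the 3 intervals did not overlap. The level without FGF4 was 1.20-fold (1.18 to 1.23) that at 5 ng/ml and 1.255-fold (1.23 to 1.28) that at 50. Pou5f1 and its binding partner thus differed in opposite directions between the same libraries. Sox2 lies within Sox2ot, a longer transcript on the same strand, and reads shared by both could not be told apart in these counts.

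Sall4 (ENSMUSG00000027547, mm10 chr2:168748332-168767943, minus strand) had 135.5, 125.9 and 125.4 CPM, a ratio of 0.925 (0.896 to 0.956) at 50 against 0 ng/ml. The level was a little higher without FGF4 and the intervals at 5 and 50 ng/ml overlapped.

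Utf1 (ENSMUSG00000047751, mm10 chr7:139943789-139945112, plus strand) had the widest difference among the members. Its UMIs numbered 1942, 21113 and 28828 at 0, 5 and 50 ng/ml FGF4, or 45.5 CPM (43.5 to 47.5), 280.8 CPM (277.0 to 284.6) and 354.1 CPM (350.0 to 358.2). The level was ordered by dose, with no overlap of intervals. The ratio to the library without FGF4 was 6.18 (5.90 to 6.48) at 5 and 7.79 (7.44 to 8.16) at 50 ng/ml, and 11 of the 5709 genes had a higher ratio at 50. On the log2 scale 88.7% of the difference between 0 and 50 ng/ml was present at 5 ng/ml.

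Lin28a (ENSMUSG00000050966, mm10 chr4:134003330-134018841, minus strand) had 3224, 12933 and 14626 UMIs. Its levels were 75.5 CPM (72.9 to 78.1), 172.0 CPM (169.1 to 175.0) and 179.7 CPM (176.8 to 182.6). Both FGF4 libraries were high and close to each other, with a ratio between them of 1.04 (1.02 to 1.07). Against 0 ng/ml the ratio was 2.28 (2.19 to 2.37) at 5 and 2.38 (2.29 to 2.47) at 50 ng/ml, so 94.97% of the log2 difference was present at 5 ng/ml. The paralogue Lin28b stood at 7.54, 15.3 and 14.4 CPM, 1.91-fold higher at 50 than at 0 ng/ml.

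L1td1 (ENSMUSG00000087166, mm10 chr4:98726734-98738480, plus strand) had 16594, 50806 and 65168 UMIs. Its levels were 388.4 CPM (382.5 to 394.3), 675.8 CPM (669.9 to 681.7) and 800.5 CPM (794.4 to 806.7), ordered by dose. The ratio was 1.74 (1.71 to 1.77) at 5 and 2.06 (2.03 to 2.10) at 50 against 0 ng/ml. Here 76.6% of the log2 difference was present at 5 ng/ml, and the ratio of 50 to 5 ng/ml was 1.185 (1.17 to 1.20). Of 5501 genes, 75 had a higher ratio between the FGF4 doses than L1td1, and 34 a higher one than Utf1, whose ratio was 1.26 (1.24 to 1.28).

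The remaining 3 genes differed by less than 1.2-fold between any of the libraries. Zfp281 (ENSMUSG00000041483, mm10 chr1:136624901-136630053, plus strand) had 65.6, 76.2 and 75.5 CPM, a ratio of 1.152 (1.102 to 1.205) at 50 against 0 ng/ml. Rif1 (ENSMUSG00000036202, mm10 chr2:52072832-52122383, plus strand) had 452.7, 482.3 and 464.5 CPM, a ratio of 1.03 (1.01 to 1.04). Trim28 (ENSMUSG00000005566, mm10 chr7:12999114-13031035, plus strand) had 613.5, 642.7 and 609.3 CPM, a ratio of 0.993 (0.979 to 1.01). Rif1 and Trim28 were highest at 5 ng/ml by these totals, but with the mean share per cell Trim28 at 5 ng/ml was below 0 ng/ml (log2 ratio -0.01). At 50 ng/ml neither sign was stable to scaling: the log2 ratio at 50 against 0 ng/ml lay between -0.0029 and 0.078 for Rif1 and between -0.094 and 0.031 for Trim28 over the totals and 7 alternatives. The annotated span of Trim28 runs across Zbtb45 on the opposite strand, and Pou5f1, Sall4 and Lin28a each overlap an antisense or opposite-strand transcript. How strand was used in counting is not given in the sources used here.

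**Figure D2:**
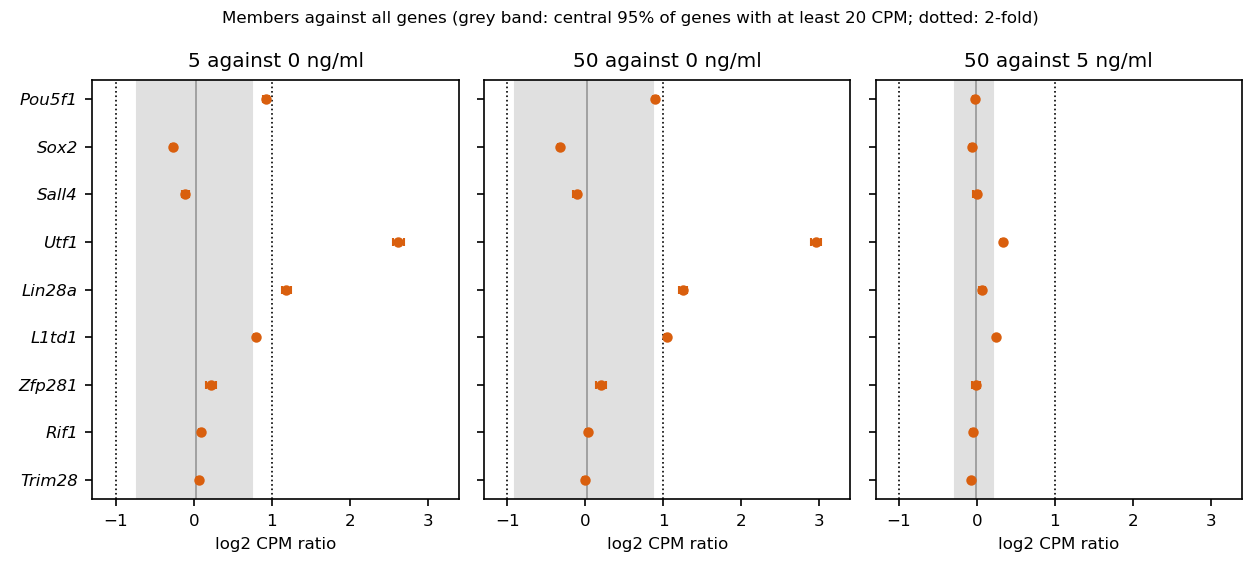
Log2 CPM ratio (x axis) of each member (rows) at 5 against 0, 50 against 0 and 50 against 5 ng/ml FGF4; points are ratios with 95% counting intervals, the grey band holds the central 95% of all genes with at least 20 CPM and dotted lines mark 2-fold. At 50 against 0 ng/ml the band ran from -0.90 to 0.87, and Utf1 (2.96), Lin28a (1.252), L1td1 (1.04) and Pou5f1 (0.90) lay above it.

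Single cells showed whether those levels came from all cells or a subset. At full depth 83.9% of the 373 cells without FGF4 had a Utf1 UMI (exact binomial interval 79.8 to 87.5), with a median of 4 UMIs. At 5 and 50 ng/ml the share was 89.2% (87.0 to 91.2) and 90.6% (88.5 to 92.3), with medians of 23 and 29 UMIs. The cells without Utf1 were of different kinds in the 3 libraries. At 5 ng/ml all 94, and at 50 ng/ml 91 of 92, failed the cell filter, but at 0 ng/ml 11 of 60 did. Filtered cells at 0 ng/ml without Utf1 (49) had a median of 98608 UMIs in all and those with it (310) a median of 111450, so they were not shallow cells. Filtered cells with a Utf1 UMI made up 86.4% at 0 ng/ml, 100% at 5 and 99.9% at 50. No cell type known to lack these genes was present in the libraries, so the UMIs that free RNA adds could not be read, and their part in these shares was not tested.

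To compare cells at equal depth, UMIs were drawn at random from each cell to a fixed total. At 7000 UMIs, which kept 369, 794 and 896 cells, the mean of Utf1 was 0.344, 1.86 and 2.36 UMIs per cell. At 29000 UMIs in the filtered cells, a depth chosen after seeing the data, it was 1.32 (SD among cells 1.61), 8.38 (4.31) and 10.3 (4.52) UMIs. There 60.2% (54.9 to 65.3) of the 359 cells at 0 ng/ml had a Utf1 UMI, beside 99.6% at both FGF4 doses. The cell distributions were almost separate: 1 of 359 cells at 0 ng/ml reached the median of the 50 ng/ml library, 10 UMIs. In 97.9% of pairs of 1 cell from each of those libraries the cell at 50 ng/ml was higher, with ties split evenly.

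For Pou5f1, Lin28a and L1td1 the cells of the libraries overlapped more. The mean of Pou5f1 at 29000 UMIs was 6.12, 11.4 and 11.0 UMIs, and 24 of 359 cells at 0 ng/ml reached the median of 11 at 50 ng/ml. Lin28a had 2.08, 4.98 and 5.31 UMIs on average, and 42 cells at 0 ng/ml reached the median of 5. L1td1 had 10.9, 19.1 and 22.1 UMIs, and 33 cells at 0 ng/ml reached the median of 20. The higher cell of a pair came from 50 rather than 0 ng/ml in 85.0% of pairs for Pou5f1, 84.1% for Lin28a and 81.4% for L1td1. The lower and upper quartiles of each were higher at 50 than at 0 ng/ml. They were 8 and 13 against 4 and 8 UMIs for Pou5f1. For Lin28a they were 3 and 7 against 1 and 3, and for L1td1 14 and 29 against 6 and 15. At 0 ng/ml 99.2% of cells held a Pou5f1 UMI, 80.8% a Lin28a UMI and 98.1% an L1td1 UMI.

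Sox2 went the other way in cells as in totals, with 11.2, 9.36 and 8.995 UMIs on average. The cell at 50 ng/ml was the higher in 36.2% of pairs. Sall4, Zfp281, Rif1 and Trim28 lay between 46.5% and 52.0% in that comparison, so cells of the libraries could hardly be ranked by them. Every filtered cell held Rif1 and Trim28 at this depth (359, 706 and 798 cells). Zfp281, the member with the lowest counts at 50 ng/ml, had a UMI in 86.4%, 86.5% and 84.8% of cells.

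The 4 members that were higher with FGF4 (Pou5f1, Utf1, Lin28a and L1td1, grouped after their levels were seen) were also read together. A cell was scored by how many of them were at or above their medians at 50 ng/ml. At 0 ng/ml 273 of 359 cells (76.0%, 71.3 to 80.4) had none of the 4 at that level, and 0 cells had all 4 (0%, 0 to 1.02). At 5 ng/ml 9.92% (7.81 to 12.4) had none and 35 of 706 cells (4.96%, 3.48 to 6.83) had all 4. At 50 ng/ml 7.27% (5.56 to 9.29) had none and 87 of 798 (10.9%, 8.82 to 13.3) had all 4. The 2 cells at 0 ng/ml with 3 of the 4 were the highest by this count in that library. The genes and their cut-offs were taken from these same counts, so low scores at 0 ng/ml follow from the single genes. At 0 ng/ml 1 of 359 cells reached the Utf1 median, so at most 1 cell could have had all 4. The score therefore restates the single-gene shares, and a joint state of cells was not tested.

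**Figure D3:**
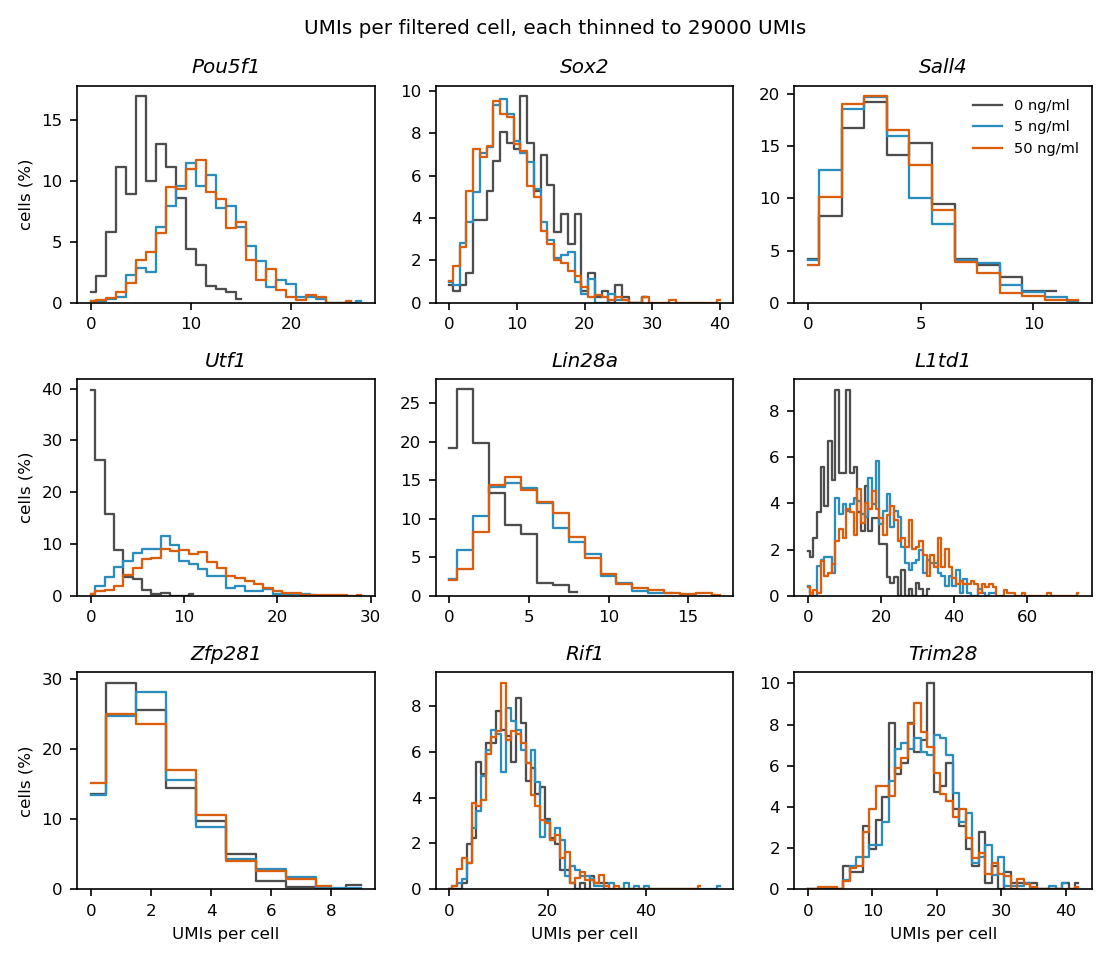
Percent of filtered cells (y axis) by UMIs of each gene per cell (x axis) after thinning every cell to 29000 UMIs, with 359, 706 and 798 cells at 0, 5 and 50 ng/ml FGF4 as 3 lines. The line without FGF4 is displaced to the left for Pou5f1, Utf1, Lin28a and L1td1 and slightly to the right for Sox2, and the lines of 5 and 50 ng/ml lie close together.

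The spread among cells was read as the Fano factor, variance over mean, which is 1 for counting noise alone. At 7000 UMIs 7 members had at least 0.5 UMI per cell at both 0 and 50 ng/ml. L1td1 was the 1 member whose Fano factor was at least 25% apart (larger against smaller value): 1.62, 1.997 and 2.41 at 0, 5 and 50 ng/ml, a ratio of 1.49. Of 1871 genes measured the same way, 7.86% were as far apart upward and 1.23% downward. In filtered cells at 29000 UMIs all 9 were measured and L1td1 was again the 1 member past that limit, at 3.49, 4.71 and 5.57 (ratio 1.59), against 3.12% upward and 3.16% downward of 5474 genes. Rif1 (2.10, 2.62 and 2.60) and Sox2 (2.17, 2.34 and 2.67) lay just under the limit, with ratios of 1.24 and 1.23.

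A Fano factor grows with the mean when cells differ by a fixed proportion, and the mean of L1td1 was higher with FGF4. The squared variation beyond counting noise, (variance - mean) / mean squared, was level for L1td1 at 0.228, 0.195 and 0.207. For Utf1 it was 0.739 without FGF4, 0.145 at 5 and 0.0958 at 50 ng/ml, so cells without FGF4 differed more from each other in proportion. At 7000 UMIs the values for Utf1 were 0.29, 0.244 and 0.139 in the first draw and 1.18, 0.147 and 0.139 in a second draw. The order was the same, but the size of the difference depended on the draw. Lin28a had 0.233, 0.0912 and 0.0917, lower with FGF4. Pou5f1 had 0.0495, 0.0279 and 0.0302, but 0.041, 0.0755 and 0.0561 in a second draw at 7000 UMIs, so its order depended on the draw. Sox2 had 0.104, 0.143 and 0.185, ordered by dose, whereas at 7000 UMIs it had 0.138, 0.126 and 0.159. Trim28, at 0.0413, 0.0307 and 0.0413, varied little in any library.

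**Figure D4:**
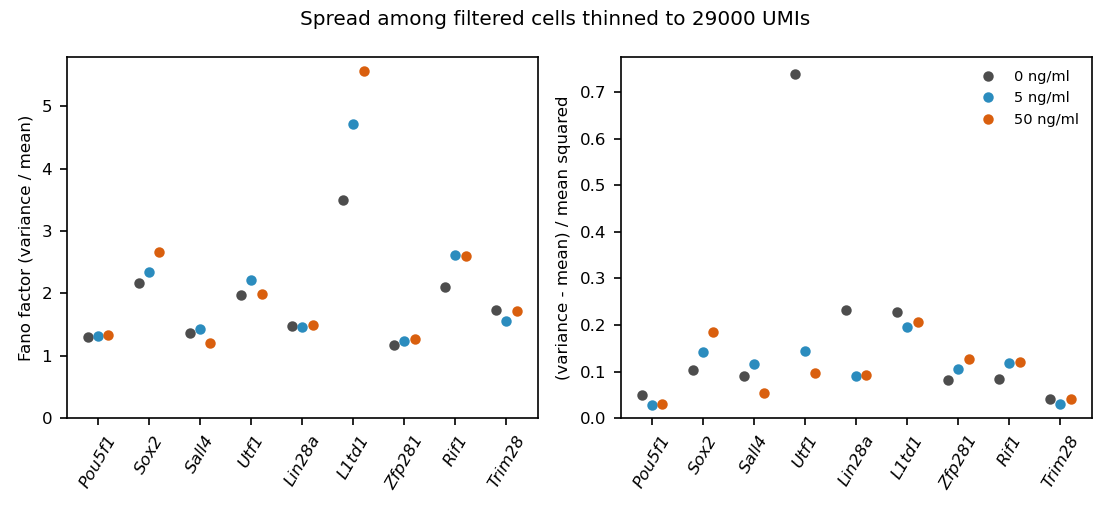
Fano factor (left y axis) and squared variation beyond counting noise (right panel y axis, both unitless and from 0) of each gene across filtered cells at 29000 UMIs, with 1 point per FGF4 dose. L1td1 has the highest Fano factor at each dose (3.49, 4.71 and 5.57), whereas in the right panel Utf1 at 0 ng/ml (0.739) stands apart.

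Cells within 1 library were then used to see which members went together. Pearson correlations were taken on log2 (UMIs + 1) across cells, which share a library and, after thinning, a depth, and they are given as descriptions without a test. The 36 pairs were weakly related, with a median of 0.0585, 0.067 and 0.0886 at 0, 5 and 50 ng/ml in filtered cells at 29000 UMIs. L1td1 and Rif1 formed the strongest pair in each library at that depth, at 0.353 (359 cells), 0.308 (706 cells) and 0.402 (798 cells). In unfiltered cells at 7000 UMIs the same pair stood at 0.114, 0.12 and 0.279, and a second draw at that depth gave 0.24, 0.195 and 0.21, so the value moved with depth and with the draw. The rank was not kept either: at 7000 UMIs Sox2 with Zfp281 (0.15) was strongest at 0 ng/ml and Pou5f1 with L1td1 (0.165) at 5 ng/ml. Pou5f1 and Sox2, whose proteins act as partners, were at 0.14, -0.00643 and 0.046.

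L1td1 was also the member with the closest partners among all genes. Over 5255 genes at 29000 UMIs its nearest was Ncl, which encodes the nucleolar protein nucleolin, at 0.53, 0.637 and 0.696. Hnrnpu and Hnrnpa3, encoding nuclear RNA-binding proteins, followed at means over the libraries of 0.532 and 0.493. At 7000 UMIs Ncl was nearest too, at 0.321, 0.582 and 0.588 over 1731 genes. Ncl was also the nearest gene of Rif1 at 29000 UMIs, at 0.35, 0.353 and 0.382, but at 7000 UMIs Malat1 was nearest (mean 0.284), with Hnrnpu (0.257) and Ncl (0.24) next. L1td1 also followed the depth of the cell before thinning, at 0.255, 0.266 and 0.224, and the summed G2 and M phase genes, at 0.276, 0.335 and 0.337. Their part in the relation to Ncl was not tested.

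The other members had weaker partners. In unfiltered cells at 7000 UMIs the abundant gene Ptma was among the 3 nearest of 5 members (Pou5f1, Sox2, Sall4, Lin28a and Trim28). The partners given next are those at 29000 UMIs. Utf1 was nearest to Mkrn1, with Tdgf1, a Nodal coreceptor, and Tcf15, a formative-state factor, next, at means of 0.212, 0.18 and 0.156. Lin28a was nearest to Set, Nasp, a histone chaperone, and Ccne1, cyclin E1, at 0.221, 0.216 and 0.209. Pou5f1 was nearest to Tdh, threonine dehydrogenase, at 0.222, Sox2 to Malat1, a nuclear long noncoding RNA, at 0.241, and Trim28 to H2afz, a histone variant, at 0.279. Sall4 and Zfp281 had no gene above 0.17.

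Read against summed gene lists in the same cells at 29000 UMIs, the relations were weak. They differed in unfiltered cells at 7000 UMIs, where cells and depth changed together and could not be told apart. The formative list (11 genes, such as Otx2, Dnmt3b and Lef1) was related to L1td1 at 0.172, 0.334 and 0.365, to Lin28a at 0.196, 0.275 and 0.272 and to Utf1 at 0.162, 0.19 and 0.26. In unfiltered cells at 7000 UMIs these were 0.0164, 0.253 and 0.298 for L1td1, -0.0137, 0.201 and 0.175 for Lin28a and 0.109, 0.0964 and 0.088 for Utf1. Relations of such size were not confined to the formative list. At 29000 UMIs the ERK target list stood at 0.175, 0.239 and 0.323 with L1td1 and at 0.0795, 0.222 and 0.144 with Utf1. With Lin28a it stood at 0.0969, 0.0792 and 0.164, and the S phase list at 0.211, 0.144 and 0.165. The naive list (14 genes, such as Nanog, Esrrb and Klf4) was related to 7 members above 0 in every library at 29000 UMIs. Sox2 had 0.327, 0.27 and 0.222, L1td1 0.349, 0.115 and 0.17, Pou5f1 0.274, 0.129 and 0.145, Rif1 0.193, 0.175 and 0.281 and Trim28 0.133, 0.238 and 0.294. Lin28a with the naive list was at -0.113, -0.083 and -0.0933, but at -0.0133, 0.0575 and 0.0407 at 7000 UMIs, so its sign depended on the cells and depth. Utf1 lay between -0.0536 and 0.0189 at 29000 UMIs and at 0.0414, 0.0999 and 0.11 at 7000, where its naive and formative values were alike in size. These values were taken within each library and so do not reflect the difference in dose.

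**Figure D5:**
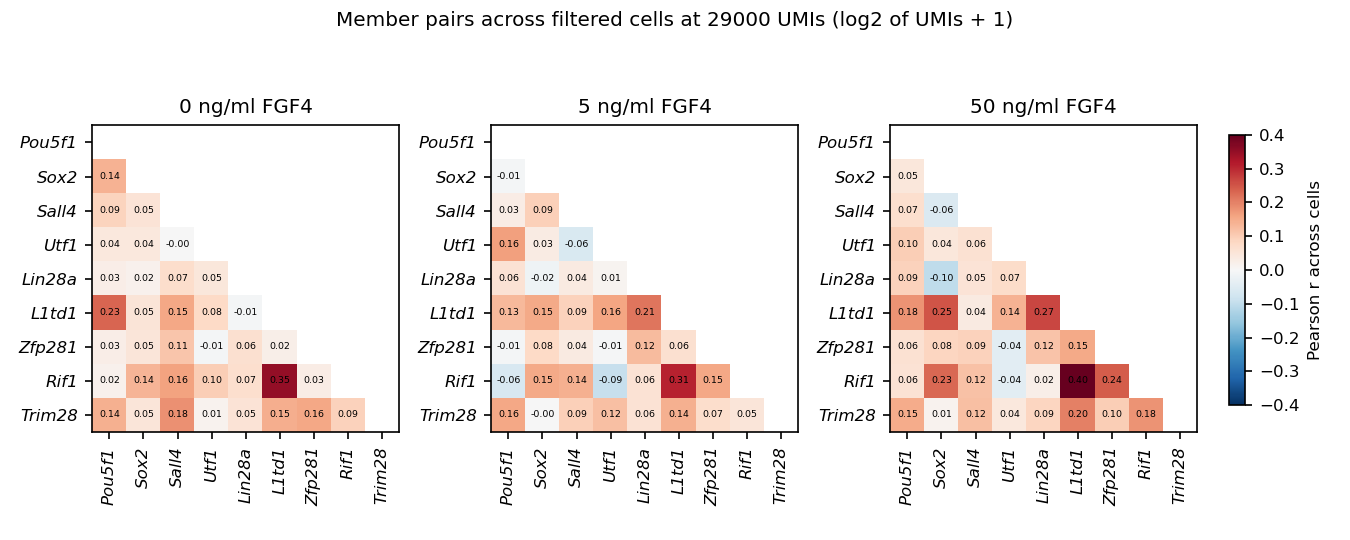
Pearson correlation across filtered cells thinned to 29000 UMIs for each of the 36 member pairs (both axes: genes; colour and printed number: r) at 0, 5 and 50 ng/ml FGF4. L1td1 with Rif1 is the darkest square in each panel (0.353, 0.308 and 0.402), and most others are pale.

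By level across the 3 libraries, the genes most like each member were found from the distance between log2 ratios at 5 and at 50 ng/ml over 4859 genes. Only genes with at least 20 CPM in every library were searched, which left out genes that were low without FGF4. Utf1 had no close neighbour among the genes searched: its nearest, the imprinted noncoding RNA Meg3, stood at 46.8, 205.2 and 220.0 CPM, a distance of 0.879. Mymx and the de novo DNA methyltransferase gene Dnmt3b came next, at distances of 1.46 and 1.69. Spry2 and Esrp1 were under 20 CPM without FGF4 and so were not searched. Their log2 ratios at 5 and 50 against 0 ng/ml lay near those of Utf1 (2.63 and 2.96). Those of Spry2 were 2.53 and 2.88, and those of Esrp1 2.63 and 2.83. Lin28a was nearest to Halr1, Cdx1 and Emb (0.0833 to 0.143), Pou5f1 to B3gnt7, Laptm4b and Phc1 (0.0385 to 0.0581) and L1td1 to Nr6a1, Hikeshi and Glul (0.0215 to 0.0618). For example, Nr6a1, which encodes the orphan nuclear receptor GCNF, had 33.5, 58.3 and 70.2 CPM. For Sox2 and the 4 level genes the nearest lay within 0.0072, as many genes had ratios like theirs.

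The pathway around each member was read from lists, with genes counted that reached 5 CPM in any library. Of all 9501 such genes, 2.63% passed the 2-fold limit upward and 3.44% downward between 0 and 50 ng/ml; higher and lower below mean past that limit. Targets with a joined OCT and SOX element (10 genes, of which Pou5f1, Sox2 and Utf1 are members) divided: 2 were higher (Utf1 and Tdgf1) and 4 lower (Nanog, Fgf4, Lefty1 and Spp1), with a median log2 ratio of -0.60. Fgf4 is counted there although its locus was mutated in every library, so it cannot be read as an intact target. Nanog, a naive pluripotency factor, had 280.5, 149.9 and 103.2 CPM, the opposite order to Utf1 in the same list. Naive factors had 6 of 14 lower and 0 higher (median -0.93), among them Tfcp2l1 at 176.1, 83.5 and 59.2 CPM. Formative genes had 6 of 10 higher and 0 lower (median 1.75), among them Dnmt3l, the cofactor of de novo methylation, at 13.6, 140.5 and 170.4 CPM. Other general pluripotency genes had 4 of 12 higher and 0 lower (median 0.75), including Dppa4 at 61.3, 118.0 and 129.8 CPM. The lists share genes: Dnmt3l is in this list and the formative list, and Tdgf1 in this list and the OCT and SOX list. Their counts are therefore not independent. ERK target genes had 7 of 11 higher and 1 lower, Egr1 (median 2.88), with Spry2, a feedback inhibitor of the pathway, at 7.35, 42.4 and 54.2 CPM.

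Genes listed with the individual members were mostly level. On the LIN28 and let-7 axis 0 of 18 genes were higher and 1 lower, Arid3a, at 10.2, 6.22 and 5.07 CPM (median -0.06). Drosha, which cuts primary miRNAs, had 87.5, 85.8 and 83.1 CPM, Dicer1 63.7, 80.1 and 79.3 CPM, and Trim71, itself a known let-7 target, 173.0, 185.3 and 186.1 CPM. Of 17 TRIM28 partners 0 were 2-fold apart (median 0.04), with Setdb1, the histone methyltransferase TRIM28 recruits, at 84.7, 73.6 and 67.0 CPM. Of 16 genes of SALL4 paralogues and NuRD 0 were 2-fold apart (median 0.04), although the histone-binding subunit Rbbp7 stood at 247.3, 394.3 and 420.2 CPM. Of 14 genes listed with RIF1, which include Zscan4 genes beside partners, 1 was higher, Zscan4d (median 0.06). Among 10 paralogues of the members 1 was higher, Pou3f1, at 3.07, 5.59 and 10.6 CPM, and 1 lower, Sox21, at 12.8, 4.95 and 3.83 CPM (median 0.02). With the mean share per cell the medians of the TRIM28, SALL4, RIF1 and paralogue lists turned to -0.04, -0.08, -0.02 and -0.03, so they carry no direction.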

How the data were processed

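UMI counts per gene and cell barcode were deposited, 1 matrix per library, made with Cell Ranger 4.0.0 per the file headers and on mm10 per the submitters' processing notes; how barcodes were chosen, and whether trypsin or Accutase detached each culture, is not given in the sources used here. Per library, counts of every cell were added up and divided by the total (CPM, per 1000000 UMIs), with exact Poisson (levels), conditional binomial (ratios) and Clopper-Pearson (shares) 95% intervals. Coordinates and transcripts came from GENCODE M21 (mm10). Cells were thinned without replacement to 7000 UMIs, or after a filter (at most 10% mitochondrial UMIs, depth within 3-fold of the median) to 29000. Scrublet, in scanpy 1.11.5, called 11, 37 and 6 doublets, which were kept except in an alternative. edgeR 4.0.16 and DESeq2 1.42.0 served only for alternative scalings. Named genes were the members, the 3 nearest genes by dose and across cells, and, of each list, genes 2-fold apart and the most abundant others. Calculations were checked on artificial data. Members and lists were chosen with earlier results of these data known.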

Additional observations from a re-analysis of the deposited data

How the results depend on the processing

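No paired analysis was possible because each dose was 1 library, and no replicate could be left out. Depth did not limit the member levels (at least 1942 UMIs each), but 7000 UMIs per cell left Utf1 and Zfp281 under 0.5 UMI at 0 ng/ml. Counts of members at least 2-fold apart were 3 (50 against 0), 2 (5 against 0) and 0 (50 against 5). With a 3-fold limit they were 1 (50 against 0) and 1 (5 against 0), and with a 1.5-fold limit 4 at 5 against 0. With the mean share per cell L1td1 fell under 2-fold (1.89) and 2 members were left at 50 against 0. Genes at least 2-fold apart numbered 229 (50 against 0), 155 (5 against 0) and 7 (50 against 5). In that order they were 597, 438 and 29 with a 1.5-fold limit, 85, 52 and 3 with a 3-fold limit, 5044, 4644 and 3556 with no minimum level, 576, 402 and 27 with a 5 CPM minimum and 105, 73 and 3 with a 50 CPM minimum. At 50 against 5 they were 15 with the mean share per cell and 13 with totals without mitochondrial and ribosomal protein genes. Of 189 alternative CPM ratios of members, 46 left the counting interval and 12 had the other sign, 0 of them for a ratio that was itself at least 2-fold; for Lin28a the sign turned between 50 and 5 ng/ml, with the mean share per cell. Over those settings Utf1 lay between 7.13 and 8.02-fold and Pou5f1 between 1.72 and 1.92-fold at 50 against 0. Of 252 alternative list medians, 13 had the other sign. Of 90 alternative correlations of the 5 pairs followed, 10 moved by 0.1 or more and 15 had the other sign. Thinning to 29000 UMIs and list medians under other scalings were added after seeing the data.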

Other observations

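Zscan4c and Zscan4d, markers of the rare embryonic stem cells that resemble cleavage-stage embryos, were lowest at 5 ng/ml FGF4. Zscan4c stood at 11.8, 3.15 and 18.7 CPM and Zscan4d at 7.61, 2.62 and 20.9 CPM at 0, 5 and 50 ng/ml. Usp17lc, of the same marker list, stood at 4.96, 0.199 and 3.11 CPM. By totals, 0 of the 9 members were lowest at 5 ng/ml.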
